A study of Mus musculus with 32 samples.

Results

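Cholesterol synthesis was followed through 8 genes in 32 mouse liver tumours: Hmgcs1, Idi1, Fdps, Fdft1, Sqle, Lss, Insig1 and Srebf2. The genes were chosen by name among 54446 genes in the count tables. All 8 were found in every table and all 8 passed the filter on low counts in every experiment. The group had also been labelled as holding uptake genes, but none of the 8 encodes an uptake receptor. BNL-MEA, a cultured line of transformed mouse liver cells, was implanted orthotopically in BALB/c mice for every tumour, so all come from 1 cell line in 1 mouse strain, with the liver of the host around them. The dose experiment (batch p112) compared 4 vehicle tumours with 3 given regorafenib daily at 5 mg/kg, called the low dose, and 3 given 20 mg/kg, called the high dose. Regorafenib is a drug that blocks several kinases, the VEGF receptors among them. The DC-101 experiment (batch p103) had 4 vehicle tumours, 3 under low dose regorafenib and 3 under DC-101, an antibody to mouse VEGFR2 injected at 800 μg on days 1, 3 and 5. The anti-PD1 experiment (batch p101) held vehicle, low dose regorafenib, an antibody to the T cell receptor PD1, and both agents together (combination), with n = 3 each. Each treatment was compared with the vehicle of its own experiment. The labels used here give no age for the mice.

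Cells make cholesterol from acetyl-CoA in a long chain of enzymes. When sterols in the endoplasmic reticulum run low, the SCAP protein carries the precursor of the transcription factor SREBP-2 to the Golgi, where it is cleaved, and the released factor turns on the synthesis genes together. INSIG proteins hold SCAP back when sterols are plentiful, and the liver is a main site of the pathway. Hmgcs1 encodes the synthase that makes HMG-CoA. Idi1 encodes the isomerase of isopentenyl diphosphate, Fdps the farnesyl diphosphate synthase and Fdft1 squalene synthase, the first enzyme committed to sterols. Sqle encodes squalene epoxidase, and Lss encodes lanosterol synthase, which closes the sterol rings. Insig1 encodes an INSIG protein and is itself a target of SREBP-2. Srebf2 encodes SREBP-2.

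In the GRCm38 assembly the genes lie at these places: Hmgcs1 at chr13:119690379-119708260, Idi1 at chr13:8885501-8892451, Fdps at chr3:89093588-89101959, Fdft1 at chr14:63145150-63179578, Sqle at chr15:59315077-59331192, Lss at chr10:76531588-76557138, Insig1 at chr5:28071363-28078662 and Srebf2 at chr15:82147181-82205379. Promoter sequence was at hand from RefSeq (GRCm38.p6) for 5 of the 8, namely Hmgcs1, Idi1, Lss, Insig1 and Srebf2. Those of Hmgcs1, Insig1 and Srebf2 are shown, because the first 2 moved closely together across the tumours and Srebf2 did not. Each is on the plus strand, is written 5′ to 3′ and ends before the annotated start of the gene. Capitals mark matches to the core of a sterol regulatory element (TCACNCCAC) or to the CCAAT box (CCAAT, the motif of NF-Y), searched on both strands. The stretches are chr13:119690101-119690350, chr5:28071162-28071362 and chr15:82147019-82147180.
Hmgcs1: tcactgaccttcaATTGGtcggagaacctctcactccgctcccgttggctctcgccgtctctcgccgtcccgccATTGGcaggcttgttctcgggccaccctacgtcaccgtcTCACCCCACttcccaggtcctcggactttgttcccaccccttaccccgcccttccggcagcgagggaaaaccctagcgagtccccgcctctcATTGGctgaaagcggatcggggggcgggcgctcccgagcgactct
Insig1: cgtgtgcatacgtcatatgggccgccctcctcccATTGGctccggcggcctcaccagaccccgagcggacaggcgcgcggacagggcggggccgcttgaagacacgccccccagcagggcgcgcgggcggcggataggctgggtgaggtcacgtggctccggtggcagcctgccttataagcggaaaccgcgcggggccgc
Srebf2: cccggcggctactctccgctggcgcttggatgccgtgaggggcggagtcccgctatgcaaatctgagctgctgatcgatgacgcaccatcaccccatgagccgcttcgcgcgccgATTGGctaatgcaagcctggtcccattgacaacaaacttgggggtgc

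In the 250 bases before the RefSeq start, the Hmgcs1 promoter held 1 sterol element match, 137 to 129 bases upstream, and 3 CCAAT boxes. Insig1 and Srebf2 each held 1 CCAAT box and no match to the sterol element, as did Lss, and Idi1 held 2 CCAAT boxes. In all 32851 promoters of the same length, 1.05% held the sterol element match, 33.8% held a CCAAT box and 0.326% held both. The 2 motifs share no overlapping letters in the Hmgcs1 promoter. A match only says that these letters are present.

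Total counts per library were 16767130 to 27693689. Markers of hepatocytes, the main cell type of normal liver, varied widely. The summed level of 20 hepatocyte markers was 25.4 to 106000 CPM (counts scaled to a common library total), with none of the 20 at 0 in any library. It was highest in high dose replicate 1 and was also high in low dose replicate 3 (30100) and high dose replicate 2 (23100) of the dose experiment, and in low dose replicate 3 (22900) and DC-101 replicates 2 (20800) and 3 (31900) of the DC-101 experiment. The epithelial markers Krt8, Krt18, Krt19, Epcam, Cdh1 and Cldn7 summed to 14 to 954 CPM, and in 3 libraries 1 of the 6 was at 0. In bulk tumours, fewer cells of a type and less RNA per cell cannot be told apart. Levels below are log2 CPM after TMM scaling within an experiment, and changes are log2 changes fitted with edgeR, whose p-values were adjusted over all genes tested. A change passed the test at an adjusted p under 0.05.

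In the 11 vehicle tumours, per kilobase of exon, Hmgcs1 was the most abundant of the 8 (26.3 ± 7.39 CPM per kb, SD, n = 11). It was followed by Srebf2 (21.3 ± 5.15), Sqle (16.2 ± 5.01), Insig1 (8.3 ± 2.29), Fdft1 (8.04 ± 2.11), Lss (2.27 ± 0.454), Idi1 (2.07 ± 1.65) and Fdps (0.809 ± 0.396). Of the neighbours in this order, only Fdft1 (5.34 to 11.2 CPM per kb) and Lss (1.3 to 3) had ranges that did not overlap. The vehicle tumours come from 3 tables that were normalized separately, so this order mixes the experiments, and it turned for some neighbours. Srebf2 was above Hmgcs1 in the vehicle tumours of the DC-101 experiment (mean 23.2 against 20.3 CPM per kb), and Idi1 was above Lss in those of the dose experiment (4.0 against 2.25) and below it in the DC-101 experiment (0.892 against 2.37). Idi1 was above Fdps in the dose experiment alone, with Fdps above it in the DC-101 (0.931 against 0.892) and anti-PD1 (1.18 against 1.05) experiments. Insig1 was likewise above Fdft1 in 1 experiment, that of anti-PD1, and below it in the dose experiment (9.39 against 9.91) and the DC-101 experiment (5.89 against 5.96). Sqle was above Srebf2 in the anti-PD1 experiment (17.1 against 16.8). Whether reads were handled alike for the 3 tables was not tested. The levels of Idi1, Fdps and Fdft1 are uncertain, because 21.9%, 21.4% and 18.3% of the 100-base windows of their transcripts are also found in transcripts of other genes. For Fdps these are Gm43738, which overlaps it, and the processed pseudogenes Gm3571 and Gm5873. For Idi1 they are mainly the pseudogene Gm13502, and for Fdft1 the neighbouring gene Ctsb and the pseudogene Gm6781. The share was 8.22% for Hmgcs1, 0.548% for Lss and 0% for Sqle, Insig1 and Srebf2.

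**Figure D1:**
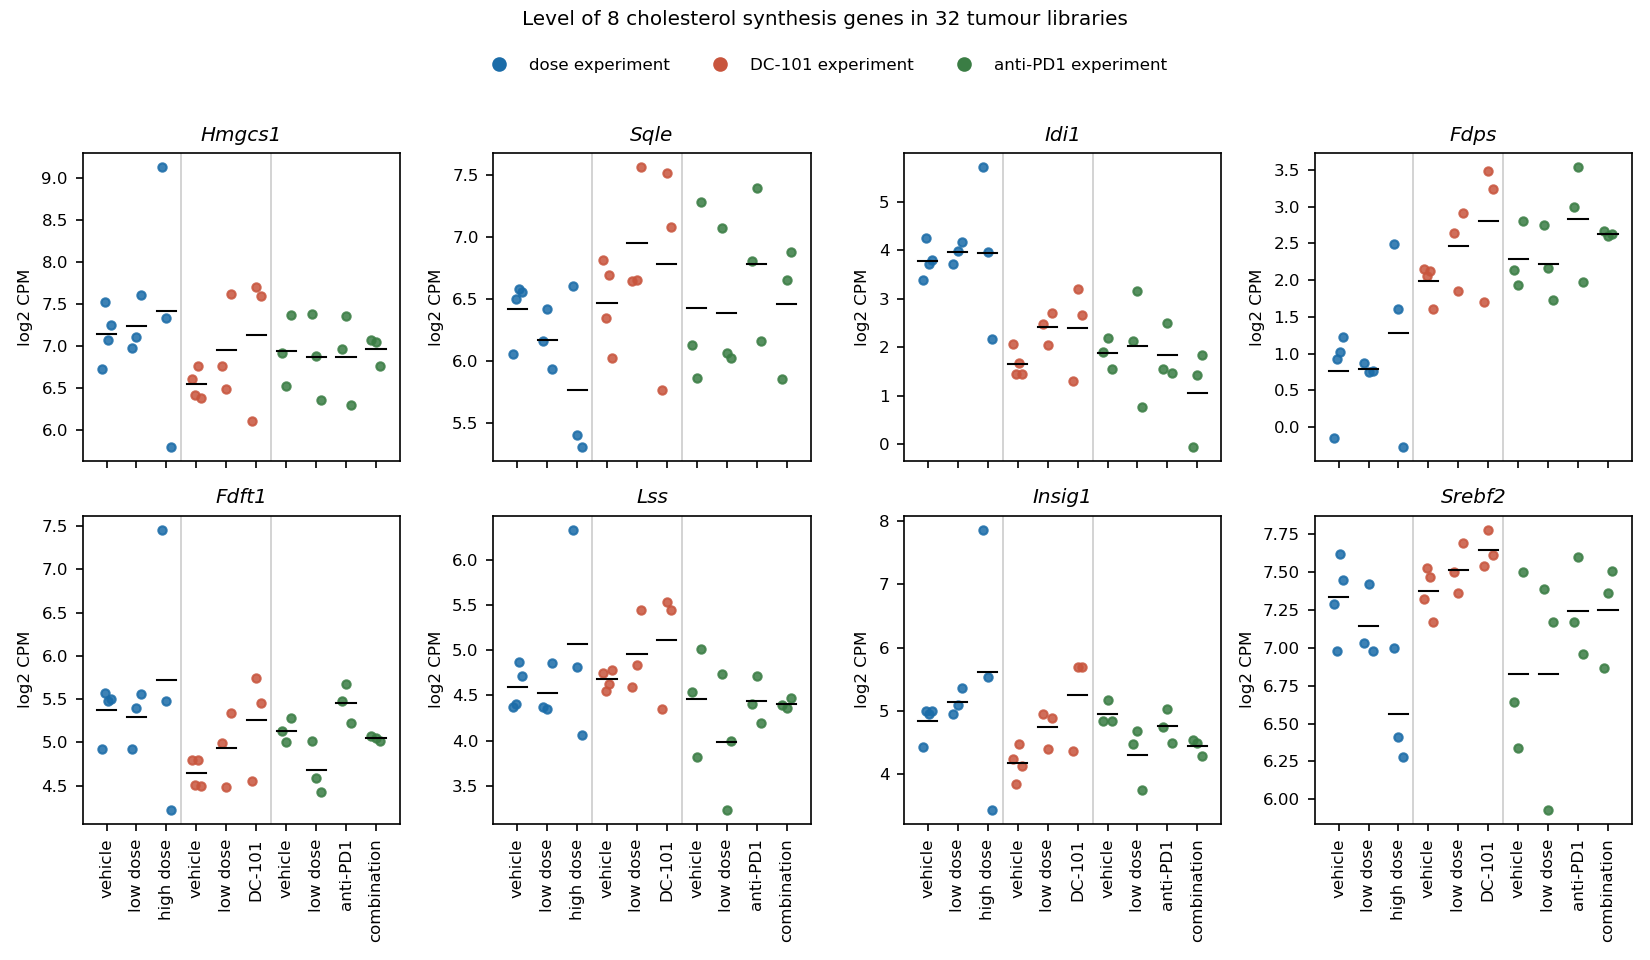
Level of each gene (log2 CPM, vertical axis) in every library, by group; points are libraries, bars are group means and colours are the 3 experiments. In the high dose group, replicate 1 is the highest of the 10 dose libraries for 7 genes and replicate 3 is the lowest for all 8, for Fdps within counting error of vehicle replicate 1.

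High dose regorafenib gave a wide spread between tumours. For Hmgcs1, Idi1, Fdps, Fdft1, Lss and Insig1 its SD was the largest of the 10 groups, while Sqle varied most under DC-101 (SD 0.91, against 0.72 at high dose) and Srebf2 in the low dose group of the anti-PD1 experiment (0.79, against 0.38). The enzymes from Hmgcs1 to Lss other than Sqle and Fdps, and Insig1, lay far above vehicle in 1 tumour and below vehicle in another. Fdps lay far above vehicle in 1 tumour and, in another, at the level of the lowest vehicle tumour. Srebf2 fell, and it was the only one of the 8 that passed the test, at an adjusted p just under the threshold. Over all 16525 genes tested, 2582 (15.6%) passed, 1455 higher and 1127 lower (6.82% of genes lower), so 1 of 8 is near the background. No member separated the groups without overlap, against 28.3% of all genes.

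Srebf2 was at 7.29, 6.98, 7.62 and 7.45 log2 CPM in the 4 vehicle tumours, at 7.03, 7.42 and 6.98 at low dose, and at 7.0, 6.41 and 6.28 at high dose. Replicates 2 and 3 of the high dose lay below every vehicle tumour, and replicate 1 lay just above the lowest vehicle tumour. The log2 change against vehicle was -0.76 (SE 0.22, 95% interval -1.26 to -0.25, adjusted p = 0.0498). It was -0.66 without high dose replicate 2 (adjusted p = 0.119) and -0.66 without vehicle replicate 3 (adjusted p = 0.116), and the call was kept only without high dose replicate 1 (-0.99, adjusted p = 0.0325) or 3 (-0.68, adjusted p = 0.0434).

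Insig1 showed the largest change of the 8. Its level was 4.43, 5.00, 4.96 and 5.00 in vehicle, 4.95, 5.10 and 5.37 at low dose, and 7.86, 5.53 and 3.44 at high dose. Replicates 1 and 2 of the high dose were above all vehicle tumours and replicate 3 was below all of them. The change was 1.73 (SE 0.76, 95% interval 0.01 to 3.45, adjusted p = 0.123).

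Hmgcs1, the HMG-CoA synthase, was at 6.73, 7.52, 7.07 and 7.25 in vehicle and at 9.13, 7.33 and 5.79 at high dose, a change of 0.85 (SE 0.61, adjusted p = 0.319). The highest and the lowest of all 10 dose libraries were thus both in the high dose group, which had an SD of 1.67 against 0.33 in vehicle.

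Further along the chain, Idi1 was at 3.38, 4.26, 3.71 and 3.79 in vehicle and at 5.71, 3.97 and 2.17 at high dose. Fdps was at -0.15, 0.93, 1.02 and 1.23 in vehicle and at 2.49, 1.61 and -0.28 at high dose. Fdft1 was at 4.93, 5.57, 5.48 and 5.50 in vehicle and at 7.46, 5.48 and 4.22 at high dose. In each of these genes replicate 1 was the highest of the 3 high dose tumours. Replicate 3 was below every vehicle tumour for Idi1 and Fdft1, while for Fdps its 19 counts were within counting error of the 20 counts of vehicle replicate 1. Lss was at 4.37, 4.40, 4.87 and 4.72 in vehicle and at 6.34, 4.82 and 4.06 at high dose. The changes were 0.77 for Idi1 (SE 0.63), 0.84 for Fdps (SE 0.58), 0.93 for Fdft1 (SE 0.60) and 0.79 for Lss (SE 0.45), with adjusted p from 0.218 to 0.378.

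Sqle took the side of Srebf2. It was at 6.05, 6.50, 6.58 and 6.55 in vehicle and at 6.60, 5.40 and 5.30 at high dose, so that replicates 2 and 3 were below every vehicle tumour. The change was -0.54 (SE 0.31, adjusted p = 0.22). Sqle and Srebf2 were the only members with a negative change, and the median change of the 8 was 0.81, against 0.02 over all genes tested.

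These values rested on the highest and the lowest high dose tumour. Without high dose replicate 3, 7 of the 8 passed the test, namely Hmgcs1 (1.26), Idi1 (1.20), Fdps (1.25), Fdft1 (1.33), Lss (1.10), Insig1 (2.18) and, in the other direction, Srebf2 (-0.68). In that fit 7030 of 17092 genes passed. Without high dose replicate 1, where 956 of 16907 genes passed, 2 of the 8 did, Sqle (-1.07, adjusted p = 0.0224) and Srebf2, and Hmgcs1 (-0.41), Idi1 (-0.49), Fdft1 (-0.41), Lss (-0.11) and Insig1 (-0.04) had turned negative without passing. Hepatocyte transcripts had the same order in the 3 high dose tumours. High dose replicate 1 had 106000 CPM of hepatocyte markers, replicate 2 had 23100 and replicate 3 had 4230, against 1510 to 9040 in vehicle. Replicate 3 thus lay within the vehicle range of these markers, and low dose replicate 3 had 30100 CPM. All 20 markers had positive changes at high dose against vehicle (median 4.26), 19 of them at an unadjusted p under 0.05. The list thus moved with the dose, and a fit with it as a covariate cannot tell the 2 apart. In that fit the change was -1.03 for Hmgcs1, -1.08 for Idi1, -0.59 for Fdps, -0.82 for Fdft1 and -0.42 for Lss. It was -0.71 for Insig1, -1.03 for Sqle and -0.91 for Srebf2, and none passed. High dose replicate 1 also had a mitochondrial share of 5.37%, against 1.77% to 2.86% in the other dose libraries, and a TMM factor of 0.678, against 0.973 to 1.1. The epithelial markers were also highest in high dose replicate 1 (954 CPM, against 69.7 to 205 in vehicle), and proliferation genes summed to 393 to 1610 CPM at high dose against 2220 to 2940 in vehicle. The part of these in the result was not tested.

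**Figure D2:**
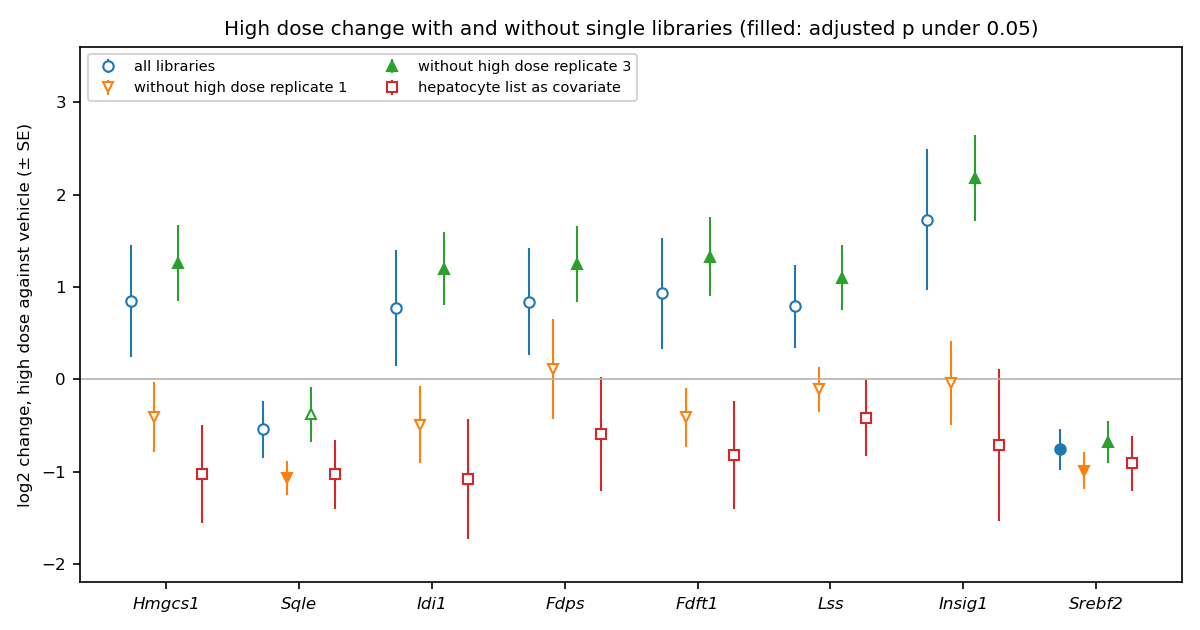
Log2 change of each gene at high dose against vehicle (vertical axis, ± SE) with all libraries, without high dose replicate 1, without high dose replicate 3, and with the hepatocyte list as a covariate; filled symbols passed an adjusted p of 0.05. Hmgcs1 moves from 1.26 without replicate 3 to -0.41 without replicate 1, while Srebf2 stays between -0.99 and -0.68.

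Against low dose, the change at high dose was positive for 6 members and negative for Sqle and Srebf2, and none of the 8 passed, where 697 of 16525 genes (4.22%) did, 288 higher and 409 lower. With scaling by total counts alone the split was 59 higher and 139 lower. Insig1 had a change of 1.44 (SE 0.83, adjusted p = 0.257), Fdft1 of 1.0 (SE 0.65, adjusted p = 0.312) and Srebf2 of -0.56 (SE 0.24, adjusted p = 0.156).

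The other genes of the pathway were counted from lists written from textbook knowledge. At high dose against vehicle 9 of 51 passed by edgeR, a share near the 15.6% of all genes. Of all genes, 40.1% had an unadjusted p under 0.05, and DESeq2 called 5275. Of 14 other synthesis enzymes, Tm7sf2, a sterol reductase, alone passed by edgeR (3.06, SE 0.88, adjusted p = 0.0484). Of the 14, 11 had positive changes (median 0.90), 6 had an unadjusted p under 0.05 and DESeq2 called 3. By edgeR 0 of 5 genes of SREBP processing and 0 of 10 of uptake and storage passed, with 3 and 6 at an unadjusted p under 0.05 and 2 and 6 called by DESeq2. Among these, Insig2, an INSIG protein gene, had a change of 1.73 (adjusted p = 0.06) and Soat2, which esterifies cholesterol, of 2.74 (adjusted p = 0.0501). Of 7 efflux genes, the cholesterol exporter Abca1 passed (1.23, SE 0.20, adjusted p = 0.0214). All 7 had positive changes, 4 had an unadjusted p under 0.05 and DESeq2 called 4. Of 9 fatty acid genes, Scd1, a desaturase, passed with a rise of 2.35 (SE 0.49, adjusted p = 0.0321) and Me1, malic enzyme, with 1.53 (SE 0.28, adjusted p = 0.0265). Of these 9, 7 had positive changes, 5 had an unadjusted p under 0.05 and DESeq2 called 5.

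The oxysterol and bile acid list held the most calls, with 5 of 6 past the threshold. The count was 2 of 6 with scaling by total counts, with no filter on low counts or with limma voom, where Cyp7a1, Cyp7b1 and Cyp27a1 were lost (adjusted p from 0.0631 to 0.169), and 6 of 6 with DESeq2. Fitted on the high dose and vehicle tumours alone, these 5 genes had adjusted p from 0.061 to 0.0765. Cyp7a1, the rate-limiting enzyme of bile acid synthesis, rose by 6.48 (SE 1.83, adjusted p = 0.048). Cyp7b1 and Cyp46a1, which hydroxylate sterols, rose by 4.46 (SE 1.24, adjusted p = 0.0467) and 2.14 (SE 0.29, adjusted p = 0.0148). Cyp46a1 is named here after its values were seen. Cyp27a1, the sterol hydroxylase of mitochondria, had a change of 3.61 (adjusted p = 0.0436) and rose with them. Ch25h, which makes 25-hydroxycholesterol, an oxysterol that restrains SREBP processing, fell by 2.67 (SE 0.34, adjusted p = 0.0143). With the hepatocyte list as a covariate, which moved with the dose, only Ch25h of these 6 genes passed. Cyp7a1 was then at 1.55 (adjusted p = 0.254), Cyp7b1 at 0.40 (adjusted p = 0.823), Cyp27a1 at 0.48 (adjusted p = 0.714) and Cyp46a1 at 2.21 (adjusted p = 0.0528). Of the genes of the other lists, Tm7sf2 was at 0.23, Scd1 at 0.98, Me1 at 0.81 and Abca1 at 1.10, and none passed. Without high dose replicate 1, Cyp7b1 was at 2.06, Cyp27a1 at 1.96 and Tm7sf2 at 1.66, and none of the 3 passed. When 1 library was left out at a time, Cyp7a1 and Cyp7b1 each passed in 2 of 10 fits, Cyp46a1 in 7 and Ch25h in 8, and Ch25h was lost without vehicle replicate 3 (adjusted p = 0.0516) or 4 (adjusted p = 0.0544). Cyp27a1 and Tm7sf2 passed in 2 of 10, Scd1 in 3, Me1 in 5 and Abca1 in 6.

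Ch25h stood at 3.71, 4.13, 3.93 and 4.32 log2 CPM in vehicle, at 5.71, 5.27 and 5.32 at low dose and at 0.74, 2.07 and 1.03 at high dose. The 3 groups did not overlap. The low dose lay above vehicle, as did 6.92% of all genes without overlap. The high dose lay below vehicle, as did 16.6% of all genes. High dose against low dose gave a change of -4.08 (SE 0.38, adjusted p = 0.00457), which was kept without any 1 of the 10 libraries and was lost with only the groups compared (adjusted p = 0.146), where no gene passed. At high dose against vehicle all 10 macrophage markers had negative changes (median -1.44), 9 of them past the threshold. All 10 T cell markers had positive ones (median 1.65), 5 of them past it, where 15.6% of all genes passed. Their part in the result was not tested.

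Low dose regorafenib against vehicle did not move any of the 8 past the threshold in any experiment. In the dose experiment, 0 of 16525 genes passed (0%; 817 had an unadjusted p under 0.05, and DESeq2 called 85). The changes of the 8 were between -0.25 and 0.29. In the DC-101 experiment, 4 of 16138 genes passed (0.0248%) and the changes of the 8 were all positive, from 0.14 for Srebf2 to 0.76 for Idi1 (SE 0.40, adjusted p = 0.353). All 20 hepatocyte markers also had positive changes there (median 3.16, 0 past the threshold), and with the hepatocyte list as a covariate 7 of the 8 changes were negative, from -0.33 for Fdps to -0.02 for Srebf2, and Idi1 was at 0.12. In the anti-PD1 experiment, 0 of 16615 genes passed (0%; 1964 had an unadjusted p under 0.05, and DESeq2 called 425), and the changes ran from -0.60 for Insig1 to 0.42 for Idi1.

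**Figure D3:**
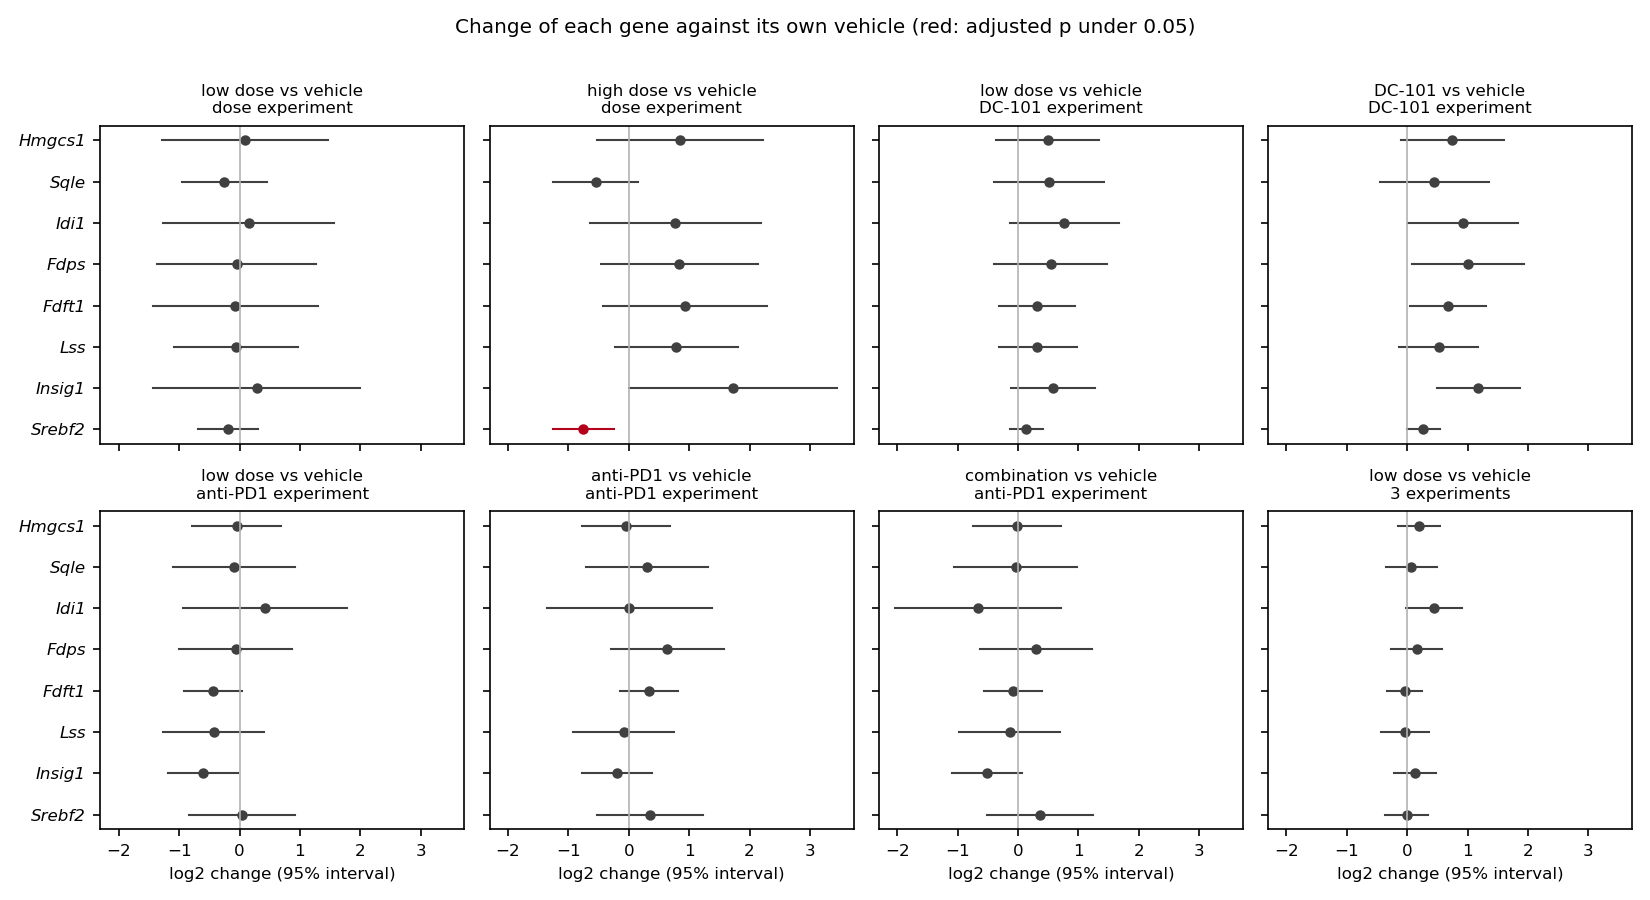
Log2 change of each gene against the vehicle of its own experiment (horizontal axis), with 95% intervals, for 7 comparisons and for the low dose over 3 experiments; red marks an adjusted p under 0.05. Only Srebf2 at high dose is red, and all 8 changes are positive for DC-101.

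Insig1 had the smallest p of the 8 for a difference between the experiments under low dose. In the DC-101 experiment it was at 4.25, 3.85, 4.48 and 4.13 in vehicle and at 4.96, 4.40 and 4.89 at low dose, a change of 0.58 (SE 0.31, adjusted p = 0.357). In the anti-PD1 experiment it was at 4.84, 5.18 and 4.84 in vehicle and at 4.48, 4.69 and 3.76 at low dose, a change of -0.60 (SE 0.27, adjusted p = 0.408). All 3 low dose tumours were below the vehicle tumours there, as were 7.36% of all genes. The hepatocyte markers went the same ways, with positive changes in 20 of 20 in the DC-101 experiment (median 3.16) and negative ones in 17 of 20 in the anti-PD1 experiment (median -1.72, 12 without overlap). With the hepatocyte list as a covariate, the change of Insig1 was -0.04 in the former and -0.37 in the latter. A direct test of the difference between the experiments gave an adjusted p of 0.424 for Insig1. No member and no gene of 15562 passed that test (0%; 1481 had an unadjusted p under 0.05, and DESeq2 called 100).

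Over the 3 experiments together, with the experiment as a term, 276 of 15562 genes passed (1.77%) and none of the 8 did. Idi1 had the largest change, 0.45 (SE 0.22, 95% interval -0.02 to 0.91, adjusted p = 0.337). The others were between -0.04 and 0.20, and the intervals of Hmgcs1 (-0.15 to 0.54), Fdft1 (-0.33 to 0.24) and Srebf2 (-0.36 to 0.34) did not reach 1. Of the other pathway genes, 2 of 51 passed. Dhcr7, which makes cholesterol from its direct precursor, rose by 0.57 (SE 0.13, adjusted p = 0.0318), and Ch25h rose by 2.15 (SE 0.45, adjusted p = 0.018).

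Dhcr7 was at 4.72, 4.80, 5.01 and 5.30 in vehicle and at 5.07, 5.38 and 5.67 at low dose in the dose experiment. It was at 5.25, 5.01, 5.31 and 4.71 against 6.08, 5.60 and 5.90 in the DC-101 experiment, and at 4.88, 3.95 and 4.91 against 5.30, 4.95 and 5.13 in the anti-PD1 experiment. The groups did not overlap in the last 2 experiments, where 6.93% and 6.68% of all genes were likewise higher without overlap. Dhcr7 passed in 14 of 20 fits that left out 1 library, with changes from 0.51 to 0.62. It was lost, at adjusted p from 0.0507 to 0.0757, without vehicle replicate 1 in the dose experiment, vehicle replicate 1, 2 or 4 or low dose replicate 1 beside DC-101, or low dose replicate 1 beside anti-PD1. It was also lost without the DC-101 experiment (adjusted p = 0.371), without the dose experiment (adjusted p = 0.19), with no filter on low counts (adjusted p = 0.0705) and with the hepatocyte list as a covariate (0.47, adjusted p = 0.0884).

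Ch25h was higher at low dose in every experiment, and no low dose tumour overlapped its vehicle group. In the DC-101 experiment its level was 3.20, 4.81, 5.29 and 0.92 in vehicle, and 7.09, 7.39 and 6.36 at low dose. In the anti-PD1 experiment it was 5.35, 1.12 and 4.38 in vehicle, and 6.65, 6.84 and 6.54 at low dose. The call was kept in all 20 fits that left out 1 library. It was lost with no filter on low counts (2.15, adjusted p = 0.0561), and without the dose experiment (2.50, adjusted p = 0.149), the DC-101 experiment (1.82, adjusted p = 0.134) or the anti-PD1 experiment (2.09, adjusted p = 0.0533). Over the 3 experiments 2 of 10 macrophage markers rose (median 0.27) and 8 of 10 endothelial markers fell (median -1.21), and their part in the result was not tested.

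DC-101 gave a positive change in all 8 genes, and none passed the test. No gene of 16138 did (0%; 2131, or 13.2%, had an unadjusted p under 0.05, and DESeq2 called 373). Of the 8 genes, 4 had an unadjusted p under 0.05, namely Idi1, Fdps, Fdft1 and Insig1. The change was largest for Insig1, which was at 4.37, 5.69 and 5.70 in the DC-101 tumours, 2 of them above every vehicle tumour (1.18, SE 0.31, 95% interval 0.49 to 1.87, adjusted p = 0.309). DESeq2 called Insig1 (1.20, adjusted p = 0.0244) and no other member.

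Fdps was at 2.15, 2.06, 2.13 and 1.61 in vehicle and at 1.70, 3.49 and 3.24 under DC-101, a change of 1.01 (SE 0.41, adjusted p = 0.358). Idi1 was at 2.06, 1.46, 1.68 and 1.46 in vehicle and at 1.30, 3.20 and 2.67 under DC-101, a change of 0.92 (SE 0.40, adjusted p = 0.374). In both genes DC-101 replicates 2 and 3 were above all vehicle tumours and replicate 1 was not. Hmgcs1 was at 6.11, 7.70 and 7.59 against 6.38 to 6.76 in vehicle (0.74, adjusted p = 0.411), and Fdft1 at 4.56, 5.75 and 5.46 against 4.50 to 4.80 (0.68, adjusted p = 0.356).

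Srebf2 was the only one of the 8 whose groups did not overlap, at 7.54, 7.78 and 7.61 against 7.17 to 7.53 in vehicle (0.27, SE 0.12, adjusted p = 0.378), where 5.25% of all genes were higher without overlap. DC-101 replicates 2 and 3 also had the most hepatocyte transcripts of the group, 20800 and 31900 CPM, where replicate 1 had 85.2 and vehicle had 25.4 to 5770. With the hepatocyte list as a covariate, the change was 0.58 for Insig1, -0.03 for Hmgcs1 and -0.25 for Sqle. The part of hepatocyte transcripts in the result was not tested. Of the 51 other pathway genes 0 passed by edgeR. Against 13.2% of all genes, 8 of 14 other synthesis enzymes had an unadjusted p under 0.05. So had 4 of 6 oxysterol and bile acid genes, 1 of 5 of SREBP processing and 1 of 10 of uptake and storage. The same held for 2 of 7 of efflux and LXR and 2 of 9 of fatty acid synthesis. DESeq2 called 1 other synthesis enzyme, 1 efflux and LXR gene and 1 fatty acid gene. All 14 other synthesis enzymes had positive changes, from 0.28 to 2.23, and the smallest unadjusted p among them was that of Ebp (0.54, SE 0.14, adjusted p = 0.309).

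Low dose regorafenib and DC-101 share the vehicle tumours of that experiment, and a direct comparison of both left none of the 8 and no gene past the threshold (0%; 1364 had an unadjusted p under 0.05, and DESeq2 called 203). The direct changes of the 8 were between -0.60 for Insig1 (SE 0.33, 95% interval -1.35 to 0.14) and 0.07 for Sqle.

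Under anti-PD1 and its combination with low dose regorafenib none of the 8 genes passed the test. Against vehicle, no gene of 16615 passed for anti-PD1 (0%; 2269 at an unadjusted p under 0.05, and 614 by DESeq2) or for the combination (0%; 1362 and 150). For anti-PD1 the changes were between -0.19 for Insig1 and 0.64 for Fdps (SE 0.42, adjusted p = 0.532). Fdps was at 3.00, 3.54 and 1.98 under anti-PD1 and at 2.14, 1.94 and 2.80 in vehicle, so the groups overlapped.

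In the combination group Insig1 was at 4.54, 4.50 and 4.29, below each of the vehicle tumours (-0.52, SE 0.27, adjusted p = 0.642), where 8.12% of all genes were lower without overlap. Idi1 was at -0.06, 1.43 and 1.84 (-0.66, SE 0.63, adjusted p = 0.792). The first of these values rests on 20 counts.

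Against anti-PD1 alone, the combination gave 0 of 16615 genes past the threshold (0%; 1443 at an unadjusted p under 0.05, and 210 by DESeq2). Fdft1 was at 5.08, 5.05 and 5.02 in the combination and at 5.48, 5.68 and 5.22 under anti-PD1 (-0.42, SE 0.22, adjusted p = 0.63). The groups did not overlap, and 14.3% of all genes were likewise lower without overlap. The mitochondrial share also separated these groups, at 1.36% to 2.34% in the combination and 0.37% to 0.68% under anti-PD1, and its part in the result was not tested. In the same experiment vehicle replicate 2 (0.26%) and low dose replicate 2 (0.312%) had the lowest shares, and each was the lowest of its group for Srebf2 (6.34 and 5.93 log2 CPM) and Lss (3.82 and 3.23). In these 4 groups hepatocyte markers summed to 968 to 19400 CPM. Under anti-PD1 against vehicle all 20 had negative changes (median -2.36, 18 without overlap). In the combination against anti-PD1 all 20 had positive ones (median 2.75, 15 without overlap), as had 10 of 10 T cell markers (median 1.87, 9 without overlap). Of all genes, 9.2% were lower without overlap in the former comparison and 16% were higher in the latter. By edgeR 0 of these markers passed the threshold, with 17 of 20, 17 of 20 and 6 of 10 at an unadjusted p under 0.05. Their part in the values of Insig1 and Fdft1 was not tested beyond 1 fit. With the hepatocyte list as a covariate, the change in the combination was -0.48 for Insig1 against vehicle (adjusted p = 0.653) and -0.57 for Fdft1 against anti-PD1 (adjusted p = 0.748).

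Across the 32 tumours, after subtracting the mean of each experiment, most of the 8 genes varied together and Srebf2 stood apart from the mean of the rest. Pearson's r over the 28 pairs ran from 0.02 to 0.92 with a median of 0.68. The libraries of a group share their treatment, so these values are a description and no test was made. Fdft1 and Insig1 (0.92), Hmgcs1 and Fdft1 (0.90) and Hmgcs1 and Fdps (0.88) were closest. Srebf2 was the least like the rest, with an r of 0.02 with Idi1, 0.08 with Insig1 and 0.30 with Hmgcs1, and its closest partner was Sqle (0.72). With the mean of the other 7, r was 0.92 for Hmgcs1, 0.91 for Fdft1, 0.89 for Fdps, 0.82 for Lss, 0.80 for Insig1, 0.73 for Sqle, 0.65 for Idi1 and 0.37 for Srebf2.

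**Figure D4:**
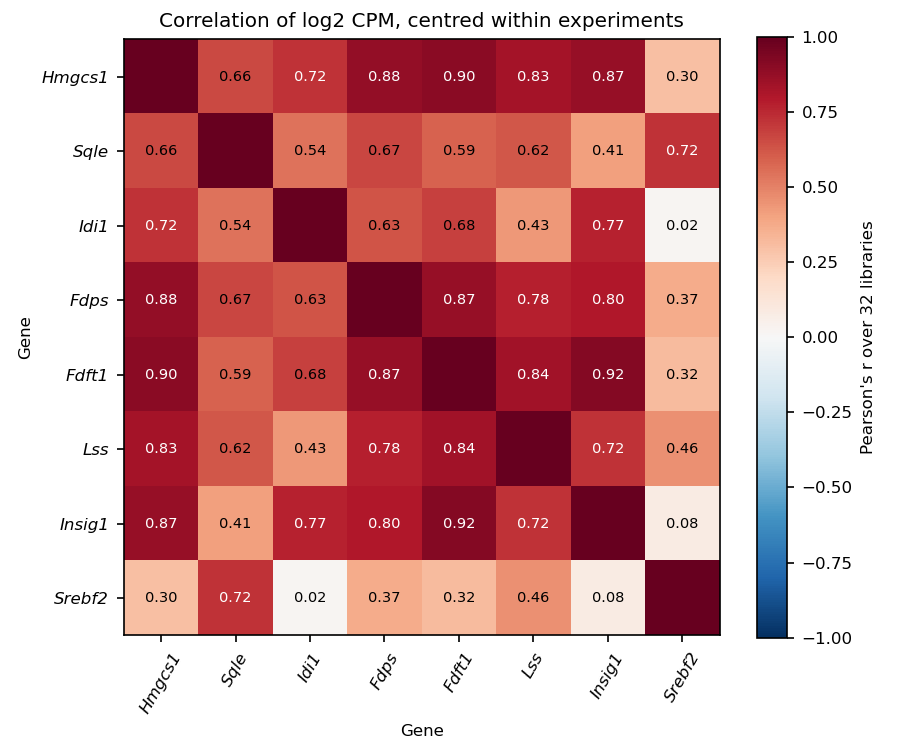
Pearson's r between each pair of the 8 genes over 32 libraries, from log2 CPM centred within experiments (red positive, blue negative). The row of Srebf2 is paler than the others apart from Sqle (0.72), while Hmgcs1, Fdps, Fdft1 and Insig1 share values from 0.80 to 0.92.

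The genes most like the mean of the 8 were taken from 15421 genes tested in all 3 experiments. Among the highest were the cholesterol synthesis enzyme genes Msmo1 (r = 0.92), Nsdhl (0.88), Cyp51 (0.83) and Acat2 (0.80). So were the sterol carrier gene Stard4 (0.84), the HDL receptor gene Scarb1 (0.80), and the processed pseudogenes Gm3571 (0.90) and Gm6781 (0.86). The last 2 share transcript windows with Fdps and Fdft1. Of the 14 other synthesis enzymes, 9 were within the 25 highest, and the median r of all genes was -0.03. The lowest were Zfp90 (-0.77), Matn2 (-0.74) and Arhgef25 (-0.73).

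A score of the 8, the mean of their centred levels in SD units, was 2.43 in high dose replicate 1 and -2.02 in high dose replicate 3, the 2 ends of all 32 libraries. The next highest were DC-101 replicate 2 (1.39) and anti-PD1 replicate 2 (1.12). Over the 32 libraries the score had an r of 0.57 and a Spearman's rho of 0.51 with the hepatocyte list, given as a description. Leaving out vehicle replicates 1 and 4 of the DC-101 experiment, the 2 farthest from the median of the list, r was 0.57. Within experiments r was 0.63 in the dose experiment (rho 0.44, n = 10) and 0.82 in the DC-101 experiment (rho 0.82, n = 10). It was -0.04 in the anti-PD1 experiment (rho -0.12, n = 12), so the relation did not hold in the last. The r of single genes with the hepatocyte list was highest for Hmgcs1 (0.67) and Insig1 (0.66), and was 0.28 for Sqle and -0.07 for Srebf2. The score had an r of 0.50 with the epithelial markers and of -0.33 with the proliferation genes, and of -0.23 with macrophage, 0.17 with endothelial, -0.06 with T cell, 0.36 with neutrophil and -0.11 with fibroblast markers.

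**Figure D5:**
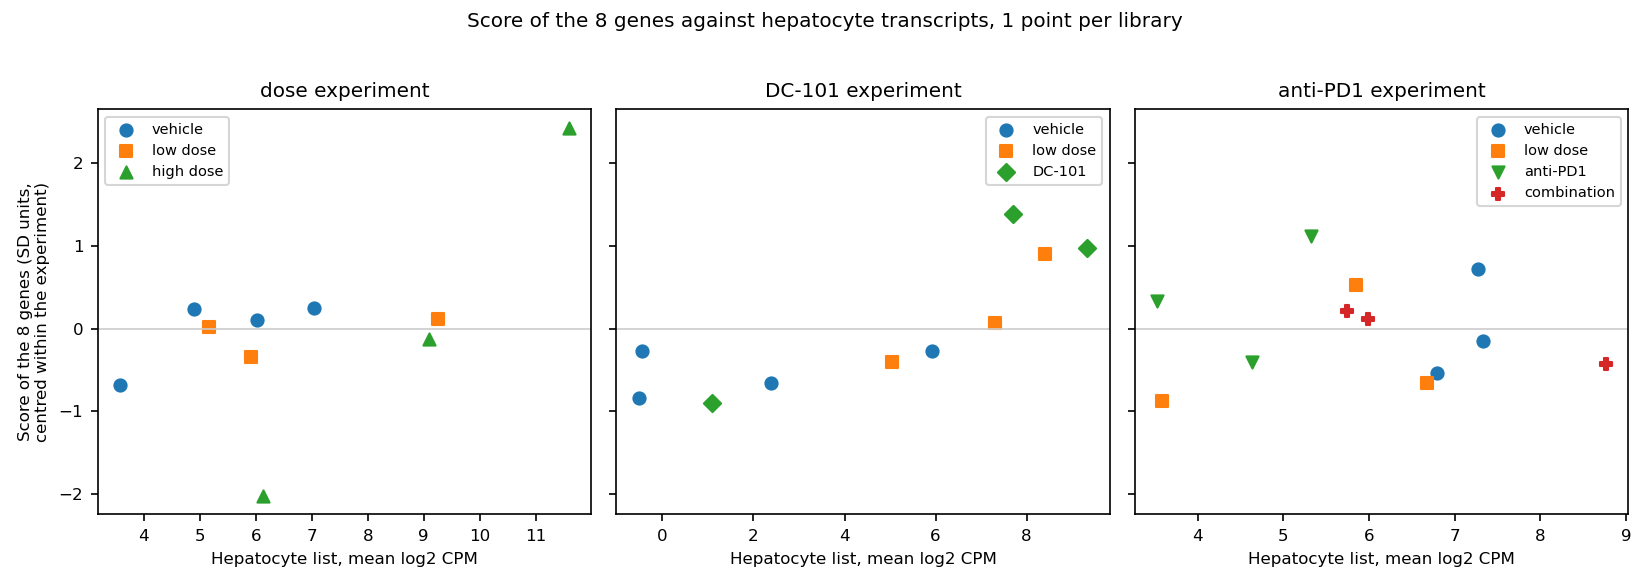
Score of the 8 genes (vertical axis, SD units, centred within the experiment) against the mean log2 CPM of 20 hepatocyte markers (horizontal axis), 1 point per library, by experiment and group. The 3 high dose points span -2.02 to 2.43, and the points rise together in the DC-101 experiment (r = 0.82) but not in the anti-PD1 experiment (r = -0.04).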

How the data were processed

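RNA of 32 tumours was sequenced from stranded mRNA libraries. Per the labels and the methods of the study, the authors trimmed reads with cutadapt 2.4 and counted them per gene with STAR 2.7.2a on GRCm38 with Gencode gene definitions. The deposited values are raw counts, 1 column per tumour, in 1 table per experiment. Which strand setting was counted is not given in the sources used here, so an antisense partner may share counts with its gene.

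Of 54446 gene identifiers, 99.93% were matched to a symbol. Counts were scaled by TMM within each table, genes were filtered with filterByExpr (minimum count 10, total 15), and groups were compared with edgeR 4.0.16 (R 4.3.3, quasi-likelihood F-test, two-sided, Benjamini-Hochberg adjustment over all genes, threshold 0.05), all groups of an experiment fitted together. The low dose was also fitted over the 3 experiments with the experiment as a term, and its change was tested for a difference between them. Levels are log2 CPM with a prior count of 2, and intervals are 95%. Groups were taken from the labels, and nothing there says how replicates were housed or processed, so p-values measure the spread between these tumours. No pair of replicates agreed within sampling noise (chi-square per degree of freedom 12.9 to 834 over 36 pairs).

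Totals were 16767130 to 27693689 counts per library, and counting error is small beside the spread between tumours for all but low counts. Alternatives were RLE size factors, total-count scaling, other filters, DESeq2 1.42.0, limma voom (limma 3.58.1), a hepatocyte covariate, a replicate block, only the groups compared, and leaving out each library or experiment. Shared windows were counted between transcripts of the Gencode annotation at hand, and promoters come from RefSeq. The members, gene lists and tests were chosen with earlier results of these data known. Genes named outside the 8 were, per list and comparison, those past the threshold, at most 3 in each direction by size, or otherwise the one with the smallest p, and the 10 most and 3 least like the mean of the 8. Some genes that this rule names are not reported here.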

Additional observations from a re-analysis of the deposited data

Results flagged for a closer look

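In 4 of the 16 gene and group pairs that held 4 libraries, 1 library stood far from the other 3, measured by its gap to the nearest of them over the range of the group. Chance alone marks about 1 in 20 independent groups, and these are not independent, since 3 of the 4 are 1 library in genes that varied together. In the dose experiment vehicle replicate 1 was the lowest of the vehicle tumours for Sqle (6.05 log2 CPM), Fdft1 (4.93) and Insig1 (4.43), and it also had the lowest summed level of hepatocyte markers of that group (1510 CPM). In the DC-101 experiment vehicle replicate 4 was the lowest for Fdps (1.61), and it likewise had the lowest hepatocyte sum of its group (25.4 CPM). The part of hepatocyte transcripts in these values was not tested.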

How the results depend on the processing

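Of the 12 comparisons, the count of the 8 genes past the threshold changed in 3. At high dose against vehicle it was 1 and became 0 with RLE size factors, no filter on low counts, a minimum of 10 counts in every library, limma voom, the hepatocyte covariate, or only the groups compared, and ran from 0 to 7 when 1 library was left out. It was 2 without high dose replicate 1 and 7 without high dose replicate 3. At high against low dose it was 0 and ran from 0 to 1, with 1 without high dose replicate 1 or 3. For DC-101 against vehicle it was 0, and 1 with DESeq2. The cause was not tested. Srebf2 at high dose kept its sign under every alternative run, from -0.99 to -0.66, with adjusted p from 0.0156 to 0.203.

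Over all genes, the 2582 called at high dose against vehicle became 1 to 5275 under the alternatives and 15 to 7030 when 1 library was left out. They were 282 with scaling by total counts, which moved the median change of all genes from 0.02 to -0.13, 416 with no filter, 1349 with limma voom, 91 with the hepatocyte covariate and 4 with only the groups compared. Without 1 vehicle library (replicates 1 to 4 in turn) they were 38, 83, 15 and 26, without 1 low dose library 135, 284 and 2678, and without 1 high dose library 956, 537 and 7030. The 697 at high against low dose became 0 to 3059 under the alternatives and 62 to 4488 when 1 library was left out. The 276 of low dose over the 3 experiments became 17 without the DC-101 experiment and 892 with DESeq2, and the 4 of low dose in the DC-101 experiment became 0 with the hepatocyte covariate and 1097 with DESeq2.

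The labels give the groups of an experiment the same replicate numbers. Same-numbered libraries deviated together (r over 0.1) in 2 of 9 pairs of the dose experiment, 4 of 9 beside DC-101 and 6 of 18 beside anti-PD1. The highest r was 0.60, 0.68 and 0.63 in that order. A pairing is thus neither shown nor excluded, and none was assumed. With the replicate number as a block, 0 of the 8 genes and 1 gene in all passed at high dose against vehicle, Srebf2 had an adjusted p of 0.201, Ch25h had one of 0.192 there, of 0.0833 at high against low dose and of 0.0611 for low dose over the 3 experiments, and the change turned for Fdps (0.05, low dose in the dose experiment), Idi1 (-0.06, anti-PD1 against vehicle) and Srebf2 (-0.04, the combination against anti-PD1).

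No change passed the test under an alternative that turned its sign. With the hepatocyte list as a covariate, the change turned at low dose in the dose experiment for Hmgcs1 (-0.42), Idi1 (-0.30) and Insig1 (-0.27). For high dose against vehicle it turned for Fdft1 (-0.82), Fdps (-0.59), Hmgcs1 (-1.03), Idi1 (-1.08), Insig1 (-0.71) and Lss (-0.42). For high against low dose it turned for Fdft1 (-0.31), Fdps (-0.22), Hmgcs1 (-0.61), Idi1 (-0.77) and Insig1 (-0.44). For low dose in the DC-101 experiment it turned for Fdft1 (-0.21), Fdps (-0.33), Hmgcs1 (-0.32), Insig1 (-0.04), Lss (-0.12), Sqle (-0.21) and Srebf2 (-0.02). For DC-101 against vehicle it turned for Hmgcs1 (-0.03) and Sqle (-0.25). For low dose in the anti-PD1 experiment it turned for Fdps (0.17), Hmgcs1 (0.22) and Srebf2 (-0.23). For anti-PD1 against vehicle it turned for Hmgcs1 (0.38) and Insig1 (0.20). For the combination against vehicle it turned for Hmgcs1 (0.04). For the combination against anti-PD1 it turned for Hmgcs1 (-0.34). For low dose over the 3 experiments it turned for Fdps (-0.02), Hmgcs1 (-0.00), Insig1 (-0.10) and Sqle (-0.06). With limma voom it turned for Fdps (0.04, low dose in the dose experiment), Idi1 (-0.14, high against low dose), Idi1 (0.02, low dose against DC-101), Idi1 (-0.04, anti-PD1 against vehicle), Hmgcs1 (0.02, the combination against vehicle) and Sqle (0.03, the combination against vehicle). With no filter on low counts it turned for Hmgcs1 (0.01, anti-PD1 against vehicle), Hmgcs1 (0.04, the combination against vehicle), Sqle (0.01, the combination against vehicle) and Srebf2 (0.00, low dose over the 3 experiments). With a minimum of 10 counts in every library it turned for Srebf2 (-0.02, low dose in the anti-PD1 experiment) and Idi1 (-0.03, anti-PD1 against vehicle). With scaling by total counts it turned for Hmgcs1 (0.02, the combination against vehicle), Lss (0.01, the combination against anti-PD1) and Srebf2 (0.00, low dose over the 3 experiments). With RLE size factors it turned for Srebf2 (-0.01, the combination against anti-PD1). With DESeq2 it turned for Srebf2 (-0.01, the combination against anti-PD1). For low dose over the 3 experiments it turned for Srebf2 (0.08) without the dose experiment, Fdps (-0.06), Insig1 (-0.12) and Sqle (-0.18) without the DC-101 experiment and Fdft1 (0.13) and Lss (0.13) without the anti-PD1 experiment. Leaving out 1 library at a time, the changes that turned ran, for low dose in the dose experiment, as Fdft1 -0.19 to 0.09, Fdps -0.28 to 0.11, Hmgcs1 -0.10 to 0.23 and Lss -0.23 to 0.05. For high dose against vehicle they ran as Fdft1 -0.41 to 1.33, Hmgcs1 -0.41 to 1.26, Idi1 -0.49 to 1.20, Insig1 -0.04 to 2.18 and Lss -0.11 to 1.10. For high against low dose they ran as Fdft1 -0.34 to 1.39, Hmgcs1 -0.51 to 1.16, Idi1 -0.65 to 1.04, Insig1 -0.33 to 1.90 and Lss -0.05 to 1.16. For low dose against DC-101 they ran as Idi1 -0.55 to 0.26 and Sqle -0.31 to 0.42. For low dose in the anti-PD1 experiment they ran as Fdps -0.38 to 0.24, Hmgcs1 -0.33 to 0.21, Idi1 -0.30 to 0.84, Sqle -0.52 to 0.47 and Srebf2 -0.23 to 0.46. For anti-PD1 against vehicle they ran as Hmgcs1 -0.30 to 0.21, Idi1 -0.40 to 0.20, Lss -0.34 to 0.23 and Sqle -0.05 to 0.87. For the combination against vehicle they ran as Hmgcs1 -0.19 to 0.24, Lss -0.39 to 0.18 and Sqle -0.29 to 0.52. For the combination against anti-PD1 they ran as Fdps -0.67 to 0.06, Hmgcs1 -0.21 to 0.29, Lss -0.16 to 0.10, Sqle -0.60 to 0.01 and Srebf2 -0.13 to 0.20. For low dose over the 3 experiments they ran as Fdft1 -0.14 to 0.02, Lss -0.15 to 0.07, Sqle -0.08 to 0.22 and Srebf2 -0.08 to 0.09. Depth limits the level of Idi1 most in combination replicate 1, where it had 20 counts.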

Other observations

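Idi1 and Fdps differed between the vehicle tumours of the 3 experiments. Idi1 lay between 3.38 and 4.26 log2 CPM in the dose experiment and between 1.46 and 2.20 in the other experiments. Fdps lay between -0.15 and 1.23 in the dose experiment and between 1.61 and 2.80 in the others. The ranges of the dose experiment and the others did not overlap for either gene, with Idi1 higher and Fdps lower in the dose experiment. Both genes share transcript windows with other genes (21.9% and 21.4%), the tables were normalized separately, and the experiment cannot be told apart from the difference. Gm13502, a processed pseudogene that shares 15.8% of the windows of Idi1, reached 4.3 CPM over all groups of the dose experiment, against 2.17 CPM beside DC-101 and 1.85 CPM beside anti-PD1. Gm35570, another that shares 0.189%, reached 2.32, 0.457 and 0.0891 CPM in that order. Gm3571, a processed pseudogene that shares 3.74% of the windows of Fdps, reached 5.55, 7.21 and 5.0 CPM. Whether reads were handled differently for the tables was not tested. The antisense gene Gm48342, which shares 7.89% of the windows of Hmgcs1, reached 12.9 CPM in the dose experiment and at most 0.114 CPM elsewhere.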
